A study of Mus musculus with 15 samples.

Results

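The 6 genes described here encode 4 adaptor chains and 2 kinases that carry signals inwards from activating receptors of immune cells. The adaptors are Tyrobp (DAP12), Fcer1g (the common gamma chain of Fc receptors), Hcst (DAP10) and Cd247 (the zeta chain of the T cell receptor complex), and the kinases are Syk and Zap70. They were chosen by symbol in the annotation of the array, where they account for 6 of 18193 genes and 14 of 45101 probe sets. Each gene was represented by the probe set with the highest mean log2 signal: 1450792_at for Tyrobp, 1418340_at for Fcer1g, 1419119_at for Hcst, 1426396_at for Cd247, 1418261_at for Syk and 1422701_at for Zap70. All 6 genes passed the filter on low signals.

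Gene expression was measured in 15 mouse samples on the C57BL/6 background, each on 1 oligonucleotide array. All carried a deletion of p53, a tumour suppressor that halts division after DNA damage, so no group with intact p53 was part of the design and that gene is not analysed here. Resting T cells (3 samples) and T cells activated in culture (3 samples) came from p53-deficient mice aged 5 weeks. The labels of these normal samples place the sort in liver or spleen, and they also carry a protocol of repeated injection of saline or killed Streptococcus pneumoniae, without saying whether these mice received it. The 9 lymphomas (mPTCL 1 to 9) were peripheral T cell lymphomas that arose after T cells lacking p53 were transferred into mice without CD3, and lymphoma cells were sorted from the liver. Such hosts lack T cells of their own but keep B cells, NK cells and myeloid cells. The markers used for sorting, the stimulus of the activated cells and the age of the lymphoma hosts are not given in the sources used here. Nothing in the labels says that samples of a group came from separate animals, so p-values measure the spread between these samples. The normal and lymphoma arrays also differ in the version of the processing software that the labels name, which cannot be told apart from the difference between the groups.

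Receptors of this class mostly have no signalling part of their own and pair with an adaptor whose tail carries an immunoreceptor tyrosine-based activation motif (ITAM). Src family kinases phosphorylate the motif, and the paired phosphotyrosines then dock Syk or Zap70, which phosphorylate linkers such as Lat, Lcp2 (SLP-76) and Blnk. Mature T cells are known to signal mainly through Cd247, the other CD3 chains and Zap70, whereas Tyrobp, Fcer1g and Syk are typical of NK, myeloid and B cells. Hcst differs from the other adaptors in that its tail carries a motif for PI3 kinase and Grb2 in place of an ITAM, and it pairs with the receptor Klrk1 (NKG2D).

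Signals are given as log2 of the deposited intensity, with a floor of 32 (5 on the log2 scale). The array median was 94.5 ± 4.06 in resting cells, 115 ± 3.98 in activated cells and 89.1 ± 15.5 in lymphomas (intensity, SD over arrays), with a ratio of the 3′ to the 5′ actin probe sets of 1.35 ± 0.13, 1.52 ± 0.03 and 1.93 ± 0.40. The mean of the 9 T cell markers on the array lay between 12.8 and 13.1 in the 6 normal arrays and between 8.6 and 11.2 in the lymphomas, below every normal array in each of them. Cd3e, a defining T cell marker, was at the floor in mPTCL 4 and at 5.68 in mPTCL 3, against 11.04 to 11.60 in normal arrays, while Cd3g was at 10.97 and 12.74 in these lymphomas. Markers of other cells differed widely between lymphomas. The mean of the 12 neutrophil markers reached 9.5 to 11.6 in mPTCL 1, 2, 4, 5 and 8 and was 5.6 to 7.8 in the other lymphomas, against 5.54 to 5.83 in normal arrays. The B cell marker mean exceeded the normal range of 6.83 to 8.75 in mPTCL 1 (10.7), 4 (9.2) and 5 (11.8). In such mixed RNA, fewer cells of a type and less RNA per cell cannot be told apart.

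Tyrobp, the adaptor of many activating NK and myeloid receptors, showed the widest contrast between the normal and the lymphoma arrays. The log2 signal was 7.15, 6.79 and 7.69 in resting T cells and 5.22, 5.02 and 5.47 in activated T cells. In mPTCL 1 to 9 it was 11.66, 12.06, 12.96, 13.09, 11.25, 6.40, 6.25, 13.04 and 13.65. The lymphomas therefore lay in separate clusters, with 7 above every normal array and mPTCL 6 and 7 between the activated and the resting arrays. The group means were 5.24 ± 0.23 in activated cells (n = 3), 7.21 ± 0.45 in resting cells (n = 3) and 11.15 ± 2.84 in the 9 lymphomas, each with its SD.

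**Figure D1:**
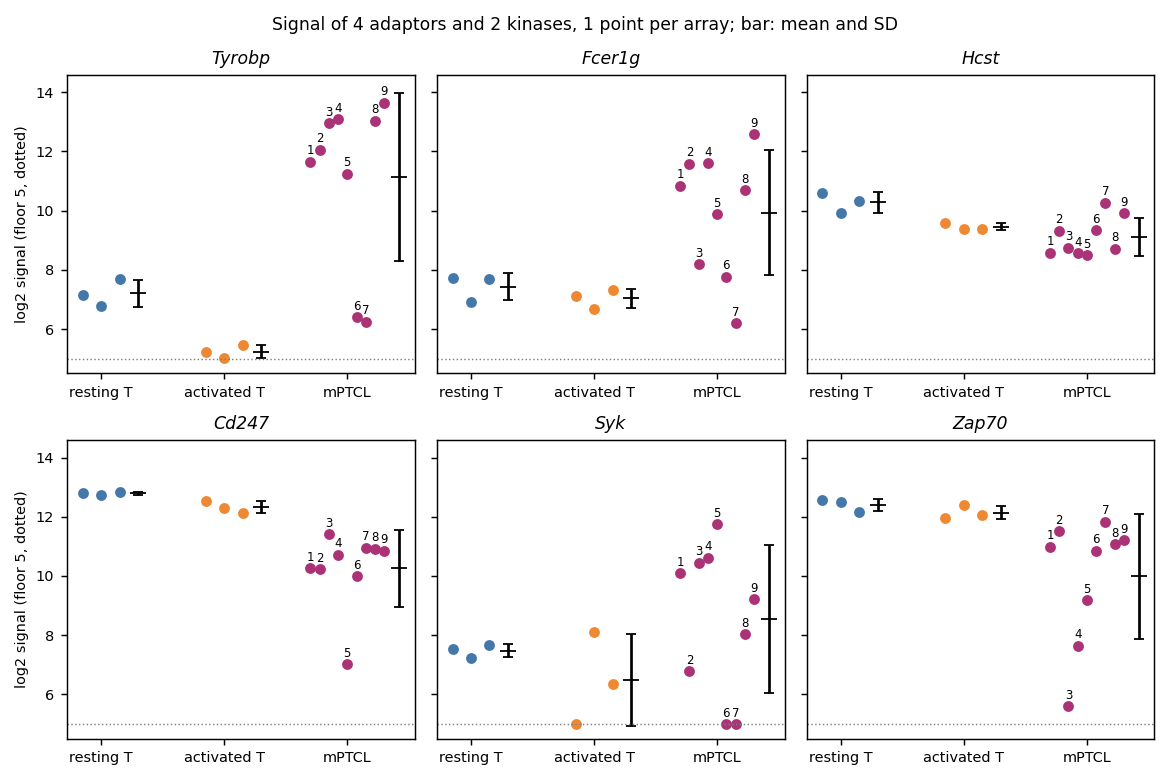
Log2 signal (vertical axis, floor of 5 dotted) of the 6 genes in each array of the 3 groups, with lymphomas numbered and the mean and SD as bars. By the probe sets used, Cd247 and Zap70 lie below every normal array in all 9 lymphomas. Tyrobp lies above every normal array in 7 of them.

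Fcer1g, the signalling chain of the high-affinity IgE receptor and of activating IgG receptors, was high in many of the same lymphomas, but not in all. Its log2 signal was 7.71, 6.91 and 7.68 in resting cells and 7.12, 6.67 and 7.32 in activated cells. The lymphomas mPTCL 1 to 9 gave 10.84, 11.59, 8.20, 11.60, 9.87, 7.77, 6.20, 10.70 and 12.57. Of the lymphomas, 8 lay above every normal array, although mPTCL 6 did so by a small margin, and mPTCL 7 lay below them all. In mPTCL 3 the Tyrobp signal was 12.96 and the Fcer1g signal only 8.20, so the 2 adaptors were not high together there. The group means were 7.04 ± 0.33 in activated cells, 7.43 ± 0.46 in resting cells and 9.93 ± 2.11 in lymphomas, and the ranges of the normal groups overlapped.

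Hcst varied least among the lymphomas and was mostly lower there than in normal cells, although it is the next gene to Tyrobp on mouse chromosome 7. Its log2 signal was 10.61, 9.92 and 10.32 in resting cells and 9.60, 9.39 and 9.39 in activated cells. From mPTCL 1 to 9 the values were 8.58, 9.33, 8.75, 8.56, 8.50, 9.34, 10.27, 8.71 and 9.92. Thus 7 lymphomas lay below every normal array, and mPTCL 7 and 9 lay within the normal range. The group means were 10.28 ± 0.35 in resting cells, 9.46 ± 0.12 in activated cells and 9.11 ± 0.65 in lymphomas, and the last pair overlapped. Its partner Klrk1 ranged from 5.66 in mPTCL 7 to 13.13 in mPTCL 2.

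Cd247 provides most of the ITAMs of the T cell receptor complex. By the probe set used, it was lower in every lymphoma than in any normal array. Its log2 signal was 12.82, 12.74 and 12.84 in resting cells and 12.55, 12.31 and 12.13 in activated cells. Across mPTCL 1 to 9 it was 10.27, 10.22, 11.40, 10.72, 7.01, 9.98, 10.95, 10.92 and 10.85. The highest lymphoma, mPTCL 3, was still below the lowest activated array, and mPTCL 5 stood far below the other lymphomas. The group means were 12.80 ± 0.05, 12.33 ± 0.21 and 10.26 ± 1.30 in resting cells, activated cells and lymphomas.

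Zap70 is the kinase that docks on the T cell receptor complex. By the probe set used, it was also below every normal array in all 9 lymphomas, but the size of the difference varied widely. Its log2 signal was 12.56, 12.48 and 12.16 in resting cells and 11.97, 12.39 and 12.05 in activated cells. In mPTCL 1 to 9 it was 10.99, 11.52, 5.60, 7.64, 9.18, 10.86, 11.83, 11.08 and 11.20. The signal in mPTCL 7 was just under the lowest activated array, and that in mPTCL 3 was near the floor. The group means were 12.40 ± 0.21 in resting cells, 12.14 ± 0.22 in activated cells, with overlapping ranges, and 9.99 ± 2.11 in lymphomas.

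Syk, the kinase that B cells and myeloid cells use in the place of Zap70, differed least uniformly between the groups. Its log2 signal was 7.54, 7.23 and 7.66 in resting cells and 5.00 (the floor), 8.10 and 6.35 in activated cells. In mPTCL 1 to 9 it was 10.10, 6.79, 10.44, 10.62, 11.75, 5.00, 5.00, 8.03 and 9.23, with mPTCL 6 and 7 at the floor. Only 5 lymphomas, mPTCL 1, 3, 4, 5 and 9, lay above every normal array, and the other 4 lay within the normal range. The group means were 6.48 ± 1.55 in activated cells, 7.48 ± 0.22 in resting cells and 8.55 ± 2.49 in lymphomas, and neighbouring groups overlapped. The activated array with the highest Syk signal was also the activated array with the highest B cell marker mean, 8.46 against 7.13 and 6.83, and the part of these markers in the difference was not tested.

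The promoter windows of the members that the lymphoma results turn on, the 2 genes low in every lymphoma by the probe sets used, the other kinase and the adaptor Fcer1g, differ in composition. Sequences are from RefSeq on GRCm38.p6, which held windows for 5 of the 6 members and none under Tyrobp, and each runs from 250 bases before to 50 after a gene start, on the strand of the gene. For Zap70 and Syk, which have several windows, the most upstream is shown. Capitals mark AGGAAG or its reverse complement CTTCCT, letters that hold the GGAA core bound by ETS family factors.
Cd247, chr1:165788431-165788730, plus strand: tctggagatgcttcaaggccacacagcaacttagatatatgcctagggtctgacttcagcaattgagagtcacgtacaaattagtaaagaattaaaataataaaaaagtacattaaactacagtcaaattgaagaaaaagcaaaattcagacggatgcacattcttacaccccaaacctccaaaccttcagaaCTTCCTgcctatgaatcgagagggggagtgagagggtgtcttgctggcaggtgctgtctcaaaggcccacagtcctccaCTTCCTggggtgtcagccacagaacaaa
Zap70, chr1:36761548-36761847, plus strand: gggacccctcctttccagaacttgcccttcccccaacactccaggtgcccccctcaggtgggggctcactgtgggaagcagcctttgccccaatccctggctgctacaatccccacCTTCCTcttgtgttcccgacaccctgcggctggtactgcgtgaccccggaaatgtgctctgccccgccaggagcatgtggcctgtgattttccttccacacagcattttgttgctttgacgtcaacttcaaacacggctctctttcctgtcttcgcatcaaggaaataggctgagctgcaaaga
Syk, chr13:52583187-52583486, plus strand: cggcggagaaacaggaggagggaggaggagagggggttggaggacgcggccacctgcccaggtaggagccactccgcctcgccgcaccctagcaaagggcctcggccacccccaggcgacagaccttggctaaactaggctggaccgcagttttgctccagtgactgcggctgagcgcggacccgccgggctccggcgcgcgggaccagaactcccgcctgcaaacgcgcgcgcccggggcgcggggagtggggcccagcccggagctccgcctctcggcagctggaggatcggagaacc
Fcer1g, chr1:171234300-171234599, minus strand: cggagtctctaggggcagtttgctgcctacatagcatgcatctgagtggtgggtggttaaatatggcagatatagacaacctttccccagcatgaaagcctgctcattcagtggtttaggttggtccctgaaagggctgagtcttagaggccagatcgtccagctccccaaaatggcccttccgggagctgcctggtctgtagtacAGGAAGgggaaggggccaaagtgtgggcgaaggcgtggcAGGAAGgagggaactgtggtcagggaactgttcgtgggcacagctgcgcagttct
The Syk window was 72% G and C with 31 CpG dinucleotides, against 43.7% and 3 in Cd247, 57.3% and 8 in Zap70 and 55.7% and 7 in Fcer1g, but the other Syk window was 48% with 2. AGGAAG, counted on both strands, occurred 2 times in Cd247 and in Fcer1g, 1 time in Zap70 and not in this Syk window. Of all 32851 windows of this length, 35.4% held it. The E-box letters CAGGTG (or CACCTG) occurred 2 times in the Zap70 window and 1 time each in Cd247 and Syk, and 20.2% of all windows held them. These matches describe the letters only, and the members that shared AGGAAG did not differ in the same direction in the lymphomas.

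The comparison of activated with resting T cells asked what stimulation in culture does to these genes in normal cells. Tyrobp was the member that fell, by 1.97 ± 0.28 on the log2 scale (3.93-fold, SE, limma adjusted p = 0.0036), and its groups did not overlap. The activated signals lie near the floor, and with a floor of 64 the change was -1.21 ± 0.23 (limma adjusted p = 0.0151). A call required a 2-fold change as well as an adjusted p under 0.05, so 1 of 6 members was called, where 12.7% of 11902 genes were (8.45% higher and 4.23% lower), a share near that of all genes. Hcst (-0.82 ± 0.19, limma adjusted p = 0.0185) and Cd247 (-0.47 ± 0.12, limma adjusted p = 0.0259) were lower in all 3 activated arrays than in any resting array, but by less than 2-fold. Syk (-0.99 ± 0.73), Fcer1g (-0.40 ± 0.31) and Zap70 (-0.26 ± 0.15) gave limma adjusted p-values of 0.344, 0.377 and 0.235. The sign on activation turned with other probe sets of Zap70 (0.53 and 0.24), with 1 of Syk (0.36) and with 1 of Cd247 (0.19). The median change of the members was -0.64, beside 0.02 over all genes. With arrays centred on their median signal, which moves the median of all genes to -0.24, Hcst was called too (limma adjusted p = 0.0060), and the split over all genes turned from 1006 higher and 504 lower to 699 higher and 1130 lower. Macrophage markers moved the same way as Tyrobp: 7 of 11 tested were called lower, the mean of the 14 on the array was 6.81 to 7.54 in resting and 5.58 to 5.69 in activated cells, and C1qa, C1qc, Clec4f, Timd4, Cd163 and Cd14 were at the floor in every activated array. Their part in the fall of Tyrobp was not tested.

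The receptors that pair with these adaptors held 4 calls on activation. Of 8 tested receptors that pair with Tyrobp or Hcst, 1 rose and 2 fell, with a median change of 0.45, where 8.45% of all genes rose and 4.23% fell. Klrk1, the NKG2D receptor for stress ligands, rose by 2.31 ± 0.21 (limma adjusted p = 0.00075), from 8.96 ± 0.35 to 11.27 ± 0.24, while its adaptor Hcst was lower. Klra8, the Ly49H receptor of NK cells, fell by 1.51 ± 0.34 (limma adjusted p = 0.0174), and Sirpb1a fell by 1.16 ± 0.36 (limma adjusted p = 0.0498), with 2 activated arrays at the floor. Of 8 receptors that pair with Fcer1g, 1 fell and none rose: Clec4n (dectin-2, a fungal mannan receptor of myeloid cells) fell by 2.86 ± 0.41 (limma adjusted p = 0.0035), with 1 activated array at the floor. The median of these 8 was -0.36. The Sirpb1a and Clec4n changes ran with the fall of the macrophage markers above, whose part in them was not tested.

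None of the 5 tested CD3 and B cell receptor chains with an ITAM passed the limma test and the fold on activation, and none of 6 Src family kinases and their controls did; the median changes were -0.39 and -0.38. Of 20 downstream adaptors and enzymes, 2 rose: the exchange factor Vav2 by 1.44 ± 0.18 (limma adjusted p = 0.0024) and the adaptor Sh3bp2 by 1.15 ± 0.29 (limma adjusted p = 0.0259), the latter not with median centring or quantile normalisation. Of 13 negative regulators, the ubiquitin ligase Cblb rose by 1.63 ± 0.12 (limma adjusted p = 0.00037). The phosphatase Ptpn6 (SHP-1) fell by 1.24 ± 0.10 (limma adjusted p = 0.00048) and the transmembrane adaptor Sit1 fell by 1.22 ± 0.16 (limma adjusted p = 0.0028). The linkers Lat (-0.70 ± 0.12) and Lcp2 (-0.52 ± 0.12) were lower by less than 2-fold.

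The comparison of lymphomas with resting T cells asked how lymphoma cells stand beside unstimulated p53-deficient cells. Cd247 fell by 2.54 ± 0.69 (5.80-fold, SE, limma adjusted p = 0.0227) and was the only member called, 1 of 6, where 13.9% of 11902 genes were (7.03% higher and 6.84% lower), again near the share of all genes. Zap70 differed by -2.41 (SE 1.104) without overlap, but its spread among lymphomas left the limma adjusted p at 0.146. Hcst differed by -1.18 ± 0.39 (limma adjusted p = 0.0509), close to the threshold. Tyrobp was 3.94 ± 1.48 higher (limma adjusted p = 0.0816), and was called without mPTCL 6 (4.53, adjusted p = 0.0269) or without mPTCL 7 (4.55, adjusted p = 0.0233). Fcer1g was 2.49 ± 1.11 higher (limma adjusted p = 0.136) and passed without mPTCL 7 (2.96, adjusted p = 0.0393). Syk was 1.07 ± 1.31 higher (limma adjusted p = 0.600), and its sign turned without the 5 lymphomas high in neutrophil markers (-0.060). The median change of the 6 members was -0.05 beside -0.02 over all genes. Cd247 was not called when any 1 resting array was left out (limma adjusted p = 0.0864 to 0.0910), where the calls over all genes also dropped from 1651 to between 778 and 827.

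Against activated T cells, the lymphomas differed most in Tyrobp. It was 5.91 ± 1.49 higher (60.3-fold, SE, limma adjusted p = 0.0147), with no overlap, against activated signals of 32.4 to 44.4 that lie just above the floor of 32. Cd247 fell by 2.07 ± 0.69 (4.20-fold, limma adjusted p = 0.0493), so 2 of 6 members were called, where 15.3% of 11902 genes were (7.04% higher and 8.28% lower). Fcer1g was 2.89 ± 1.11 higher (limma adjusted p = 0.0802, but 0.0473 with quantile normalisation and 0.0215 without mPTCL 7), Zap70 differed by -2.15 ± 1.11 without overlap (limma adjusted p = 0.184), and Syk (2.07 ± 1.37) and Hcst (-0.35 ± 0.38) gave limma adjusted p-values of 0.299 and 0.528, with the sign of Hcst turned without the 5 lymphomas high in neutrophil markers (0.11). The median change of the members was 0.86, beside -0.08 over all genes. Tyrobp was not called when any 1 activated array was left out (limma adjusted p = 0.0602 to 0.0686) or without the 5 lymphomas high in neutrophil markers (4.58 ± 1.96, limma adjusted p = 0.135). Cd247 lost its call when any 1 activated array was left out (limma adjusted p = 0.126 to 0.162), without mPTCL 1, 2, 4, 6, 7, 8 or 9 (0.0501 to 0.0704) and with median centring (-1.72, 0.116), which also turned the split over all genes from 838 higher and 986 lower to 1481 higher and 497 lower. With the mean of all probe sets of a gene that split was 585 higher and 1108 lower. Both comparisons share the lymphoma arrays.

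The markers of other cells did not run with the adaptors in every lymphoma. In mPTCL 3, Tyrobp was at 12.96 and Syk at 10.44 while the neutrophil marker mean, 5.6, lay in the range of the normal arrays, none of its 12 markers lay more than 1 log2 unit above them, and the macrophage mean was 6.5, between the activated arrays (5.58 to 5.69) and the resting arrays (6.81 to 7.54). Of its 14 macrophage markers 1, Adgre1 at 10.54, lay more than 1 unit above every normal array, and its mast cell and basophil mean of 7.56 was the only list mean above the normal range (5.43 to 7.40). In mPTCL 9, which had the highest Tyrobp and Fcer1g signals, the macrophage mean was 6.7 and the neutrophil mean 7.8. There 6 of 12 neutrophil markers lay more than 1 unit above every normal array. Its NK receptor mean was 9.6, against 7.98 to 8.70 in normal arrays, with 5 of 12 markers more than 1 unit above them. In mPTCL 3 the NK receptor mean was 6.7, below the normal range. Conversely mPTCL 6, with a neutrophil mean of 7.6 and an NK receptor mean of 9.7, had Tyrobp at 6.40 and Syk at the floor. In mPTCL 1, 2, 4, 5 and 8 the neutrophil mean was 9.5 to 11.6 and the S100a8 signal 13.05 to 14.73, and the part of those cells in the adaptor signals there was not tested. No neutrophil marker was at the floor in all lymphomas, whereas Lcn2 and Cxcr2 were at the floor in every normal array.

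**Figure D2:**
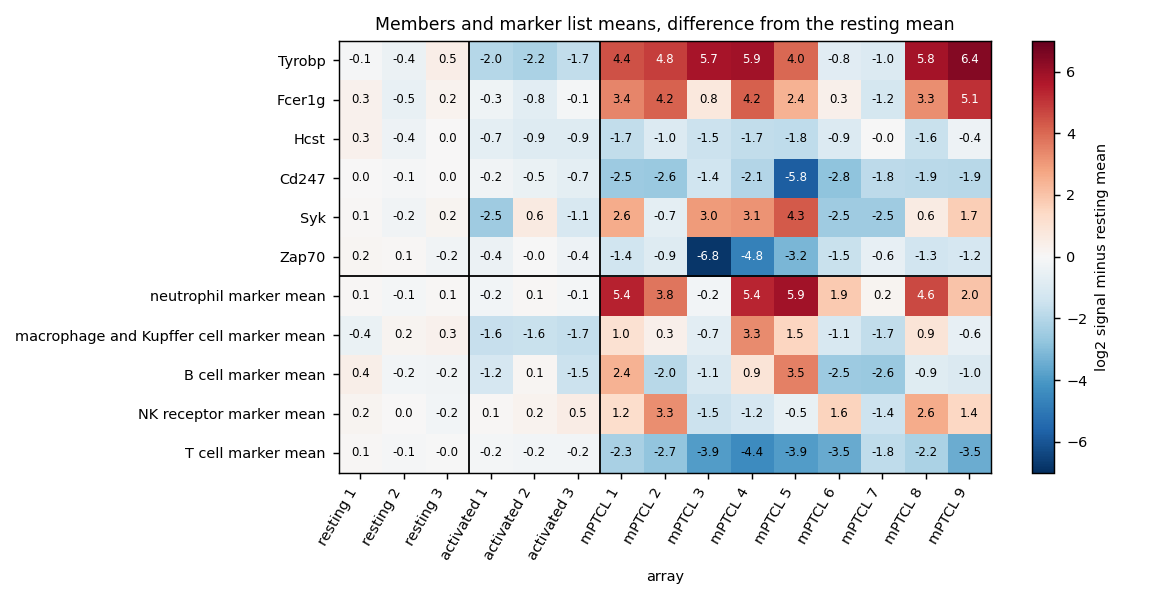
Difference in log2 signal from the mean of the resting arrays, for the 6 genes (top) and the means of 5 marker lists (bottom), in each of the 15 arrays. In mPTCL 3 and 9 Tyrobp is 5.7 and 6.4 above the resting mean while the macrophage mean is below it. The neutrophil and NK receptor means are above every normal array in mPTCL 9, but not in mPTCL 3.

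The balance of the kinases was described as the shift of Syk from its resting mean minus the shift of Zap70 from its own, on the log2 scale, since signals of different probe sets cannot be set against each other. It was -0.10, -0.33 and 0.42 in resting cells and -2.05, 0.63 and -0.77 in activated cells. In mPTCL 1 to 9 it was 4.03, 0.19, 9.77, 7.90, 7.50, -0.93, -1.91, 1.88 and 2.95. The values were below 0 in mPTCL 6 and 7, where Syk was at the floor and the value is an upper bound. Zap70 was itself below its resting mean in both, at -1.54 and -0.57. The balances of both lay within the range of the activated arrays, of which the lowest also had Syk at the floor. At the other end, mPTCL 3, 4 and 5 had shifts to Syk of over 7 units. These same 3 lymphomas had the highest 3′ to 5′ actin ratios, 2.23, 2.41 and 2.65, against 1.47 to 1.91 in the other 6, and the part of RNA quality in their kinase and Cd3e signals was not tested. The median was 2.95 (SD 4.15, n = 9), and 7 of 9 lymphomas lay above 0, with mPTCL 2 (0.19) inside the resting range. In each normal group 1 of 3 arrays lay above 0 as well. With the mean of all probe sets the highest balance was 6.13, and 6 of 9 lymphomas lay above 0. With a floor of 64, 8 of 9 did.

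By the probe sets used, the 3 most Syk-shifted lymphomas differed in how the shift was split between the kinases. In mPTCL 3 most of the shift was in Zap70, at -6.81 from its resting mean, with Syk at 2.96 from its own. In mPTCL 5 the larger part was Syk, at 4.28 from the resting mean, with Zap70 at -3.22. In mPTCL 4 Zap70 was at -4.76 and Syk at 3.15. By 1440178_x_at, Zap70 signals in mPTCL 3, 4 and 5 were 6.90, 7.74 and 8.99, against 10.47 to 11.15 in resting cells. By 1439749_at they were 8.89, 10.08 and 9.87, against 9.29 to 9.79 in resting cells. The split between the kinases therefore depends on the Zap70 probe set. The B cell marker mean was 11.8 in mPTCL 5, 9.2 in mPTCL 4 and 7.2 in mPTCL 3. In mPTCL 3 the B cell genes Ms4a1 (5.1), Pax5 (5.0), Cd22 (5.4), Cd79a (5.1) and Ebf1 (5.0) were at or near the floor, while Pou2af1 (12.0), Blk (10.3) and Spib (10.1) were well above it, and 3 of 13 B cell markers on the array lay more than 1 log2 unit above every normal array. Without mPTCL 1 and 5, the lymphomas highest in B cell markers, the median balance was 1.88 with 5 of 7 above 0, and without the 5 high in neutrophil markers it was 1.01 with 2 of 4 above 0.

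**Figure D3:**
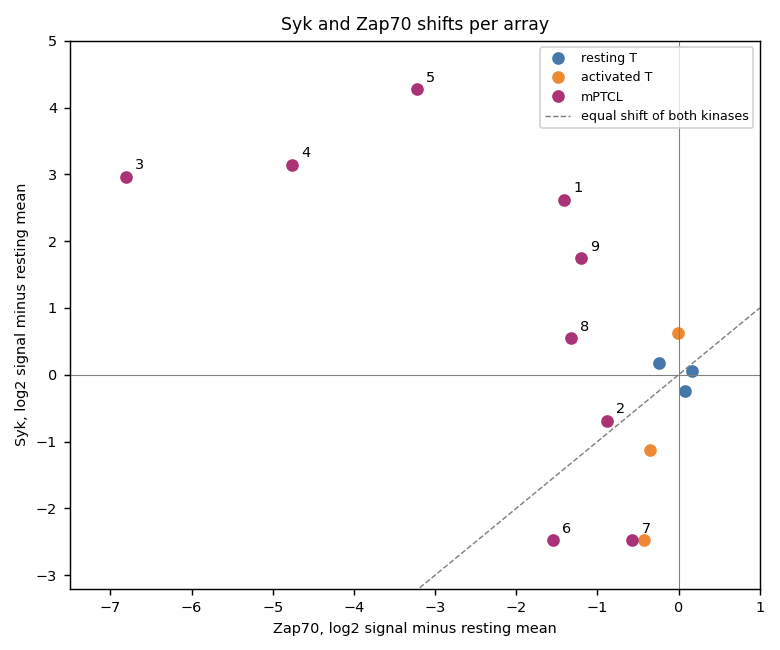
Shift of Zap70 (horizontal) and of Syk (vertical) from their resting means, in log2 units, with 1 point per array, lymphomas numbered, and a dashed line where both shifts are equal. mPTCL 3, 4 and 5 lie far above the line, and mPTCL 6 and 7 and the lowest activated array have Syk at the floor.

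Relations across the 9 lymphomas were computed for 17 pairs, with 2-sided exact permutation tests and adjustment over the 17. Zap70 went with Cd3e (r = 0.94, exact p = 0.0025, adjusted 0.0424; Spearman's rho = 0.83, exact p = 0.0083, adjusted 0.0703), and r was 0.86 without mPTCL 3 and 4. Yet without mPTCL 5 the others fell into separate clusters. Within the 6 lymphomas with both signals high r was 0.32 (adjusted exact p = 0.623), so the relation rests on mPTCL 3, 4 and 5. The pair also missed the threshold without mPTCL 2, 4, 6, 8 or 9 (adjusted exact p = 0.0527 to 0.0784). Syk went with the B cell marker mean (r = 0.83, exact p = 0.0065, adjusted 0.0554; rho = 0.85, exact p = 0.0066, adjusted 0.0703), which misses the threshold after adjustment, and r was 0.77 without mPTCL 6 and 7. This pair passed with a floor of 64 (adjusted exact p = 0.0299), with the mean of probe sets (0.0140), and without mPTCL 1 (0.0325) or mPTCL 3 (0.0270). It did not pass without mPTCL 2, 4, 5, 6, 7, 8 or 9 (adjusted exact p = 0.0527 to 0.301) or with median centring (0.0814). Syk and Zap70 ran in opposite directions (r = -0.63, exact p = 0.0664, adjusted 0.211; rho = -0.71, exact p = 0.0381, adjusted 0.216), which does not pass either, with r = -0.61 without mPTCL 6 and 7.

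The remaining relations gave adjusted exact permutation p-values of 0.211 or more. Cd247 gave r = -0.05 (rho = 0.08) with Zap70 and r = -0.04 (rho = 0.20) with Cd3e, chains and kinase of the same receptor pathway. These values depended on 1 or 2 lymphomas: r was 0.36 and 0.19 without mPTCL 3, 0.47 and 0.64 within the 6 lymphomas of 1 cluster without mPTCL 5, and -0.58 and -0.40 without mPTCL 5 and 6. Fcer1g gave r = 0.63 with the neutrophil mean and 0.62 with the macrophage mean, which were 0.35 and 0.22 without mPTCL 6 and 7 but 0.83 and 0.84 without mPTCL 9 (adjusted exact p = 0.0656 and 0.0527). Syk gave r = 0.50 with the neutrophil mean and -0.32 with the NK receptor mean. Without mPTCL 3 the former was 0.82 (adjusted exact p = 0.0958), with rho = 0.90 (adjusted exact p = 0.0438). The latter was -0.88 without mPTCL 6 and 7. Tyrobp formed separate clusters, so it was related only within its 7 high lymphomas. There r was 0.27 with Fcer1g, 0.50 with Hcst, -0.56 with the neutrophil mean, -0.23 with the macrophage mean and -0.03 with the NK receptor mean. With Fcer1g it was 0.76 without mPTCL 3 and -0.06 without mPTCL 9, and with Hcst it was 0.05 without mPTCL 9. With the macrophage mean it was -0.78 without mPTCL 4 and 0.03 without mPTCL 9. Hcst and its partner Klrk1 gave r = -0.32, and 0.64 without mPTCL 7 and 9, the lymphomas farthest from the median of Hcst. The labels name no batch among the lymphomas, so no value within batches can be given.

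**Figure D4:**
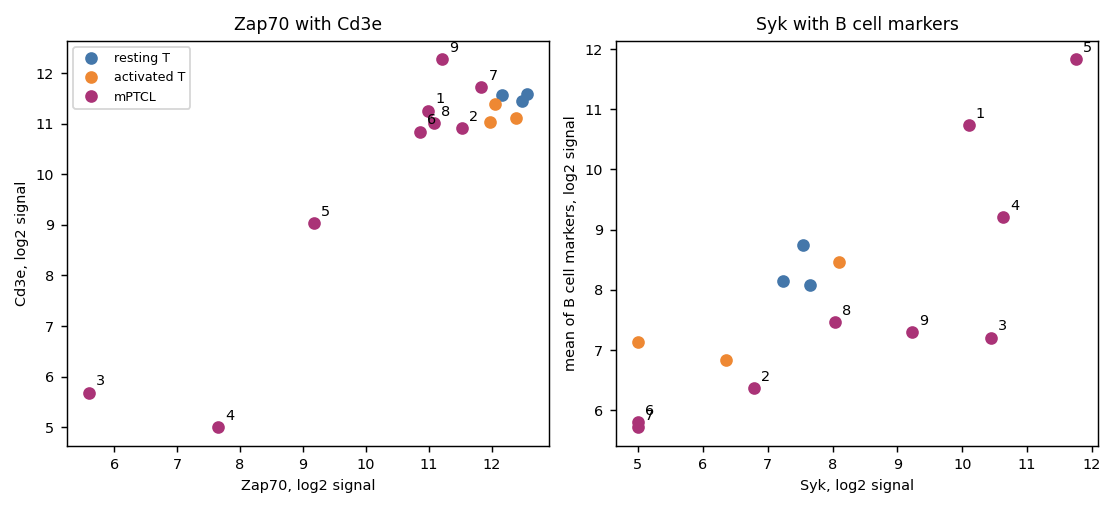
Left, Cd3e against Zap70; right, the mean of 13 B cell markers against Syk (log2 signals, 1 point per array, lymphomas numbered). On the left the 6 lymphomas with Zap70 above 10 form 1 group and mPTCL 3, 4 and 5 spread below it; on the right mPTCL 3 has Syk at 10.44 with a B cell mean of 7.2.

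The genes most like each member over the 9 lymphomas were taken as the 3 with the highest r among 11521 genes, as a description. For Syk they were Pou2af1 (0.98), Gpr137b (0.97) and Cd83 (0.96), an activation marker of dendritic and B cells. Pou2af1, a coactivator of octamer factors in B cells, is itself in the B cell marker list. For Zap70 they were the Src family kinase Fyn (0.97), the granule protease Gzmk (0.97) and the prostaglandin E receptor Ptger4 (0.97). Fcer1g was most like Plek (0.95), a protein kinase C substrate of platelets and leukocytes, Tdrd7 (0.95) and the neutrophil granule protein Ltf (0.93), which is also in the neutrophil marker list. For Tyrobp they were B4galt5, Rad9a and Pgap3 (0.93 each), and for Hcst Tpbgl (0.97), Epb41l4a (0.93) and Sh3d19 (0.93). Cd247 was most like Mterf1a, Synrg and Mob3a (0.96 each). These values take in all 9 lymphomas, so those of Tyrobp span its separate clusters and those of Cd247 the outlying mPTCL 5. Pgap3 ranged only from 5.03 to 6.69 in lymphomas, near the floor.

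Among the partners of the members, Cd3d fell and the phospholipase Plcg2 rose in the lymphomas against either normal group. Against resting cells none of the 8 Tyrobp or Hcst partners and none of the 8 Fcer1g partners passed, although their median changes were 1.41 and 1.62. Of the 5 other ITAM chains, Cd3d fell by 2.75 ± 0.70 (limma adjusted p = 0.0175) and Cd3g fell by 2.12 ± 0.68 (limma adjusted p = 0.0462), the latter not with median centring, and the median of the 5 was -1.79. Cd3e differed by -1.79 ± 1.38 (limma adjusted p = 0.390). The B cell receptor chains Cd79a (-0.51 ± 1.24) and Cd79b (-1.31 ± 1.60) varied from the floor in mPTCL 6 to 11.73 and 13.93 in mPTCL 5. Csk, which restrains Src family kinases, was the only 1 of 6 called in its list and fell by 1.52 ± 0.24 (limma adjusted p = 0.0011).

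Downstream of the kinases, 2 of 20 genes rose and 2 fell against resting cells, near the shares of all genes (7.03% and 6.84%). Plcg2, the phospholipase that B and myeloid cells use with Syk, rose by 3.91 ± 0.50 (limma adjusted p = 0.00034), from 8.42 ± 0.40 to 12.32 ± 0.91, without overlap. Sh3bp2 rose by 1.42 ± 0.39 (limma adjusted p = 0.0227). Prkcq, the protein kinase C theta of T cells, fell by 3.02 ± 0.47 (limma adjusted p = 0.0011), and Rasgrp1, which couples diacylglycerol to Ras, fell by 2.56 ± 0.44 (limma adjusted p = 0.0021). Of 13 negative regulators, Sit1 fell by 3.15 ± 0.97 (limma adjusted p = 0.0396) and Lax1 by 1.32 ± 0.39 (limma adjusted p = 0.0314). The linker Lat, at 11.24 ± 1.55 in lymphomas against 13.24 ± 0.13, did not pass (limma adjusted p = 0.106), nor did Lcp2 (-0.69 ± 0.38, adjusted p = 0.225) or Blnk (0.40 ± 1.67, adjusted p = 0.895), and Blnk was at the floor in 4 lymphomas and at 13.48 in mPTCL 5.

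Against activated cells the same lists, of 8, 8, 5, 6, 20 and 13 tested genes, held 1 gene higher and 8 lower. Over all genes 7.04% were higher and 8.28% lower. Plcg2 rose by 3.38 ± 0.55 (limma adjusted p = 0.0018). Among the 5 lower genes downstream were Prkcq (-3.00 ± 0.47), Rasgrp1 (-2.74 ± 0.45) and Plcg1 (-2.18 ± 0.50), the phospholipase that T cells use with Zap70, with limma adjusted p-values of 0.0015, 0.0018 and 0.0099. Cd3d fell by 2.56 ± 0.70 (limma adjusted p = 0.0212) and Csk by 1.15 ± 0.24 (limma adjusted p = 0.0061), neither with median centring. Cblb, higher in activated than in resting cells, fell by 2.26 ± 0.27 in lymphomas (limma adjusted p = 0.00029). Without the 5 lymphomas high in neutrophil markers, the CD3 and B cell chains had 0 called against activated and 1 against resting cells. Of the T cell markers, 5 of 9 were called lower in each comparison. Over all genes 6.84% were lower against resting and 8.28% against activated cells. The T cell marker list includes Cd3d, Cd3g, Cd3e and Lat, so it is not independent of the calls above. The part of the cell mixture was not tested.

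Several probe sets per gene were measured for Syk, Zap70 and Cd247. The other 3 Syk probe sets followed the one used over the 9 lymphomas (r = 0.97, 0.96 and 0.84). For Zap70, 1440178_x_at followed it (r = 0.97), with a difference from resting cells of -1.08 ± 0.78, but by it mPTCL 2 (11.28) lay above every resting array (10.47 to 11.15) and mPTCL 6, 7 and 9 lay among them, while 1439749_at did not (r = -0.39) and stayed at 8.69 to 10.08 in lymphomas against 9.29 to 9.79 in resting cells. For Cd247, 1452539_a_at (r = 0.96) and 1420716_at (r = 0.85) followed it and were called against both normal groups (-1.94 and -1.51 against resting, -2.13 and -1.29 against activated cells), while 1426079_at (r = 0.12) differed by -1.28 and -1.20 with limma adjusted p-values of 0.104 and 0.114. In mPTCL 4, Cd247 by 1426079_at (9.17) lay above every normal array (7.93 to 8.96). Zap70 by 1439749_at (10.08) lay above every normal array (9.29 to 9.90) in the same lymphoma. The probe sets used gave the largest differences of Zap70 and Cd247, except for Cd247 against activated cells.

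**Figure D5:**
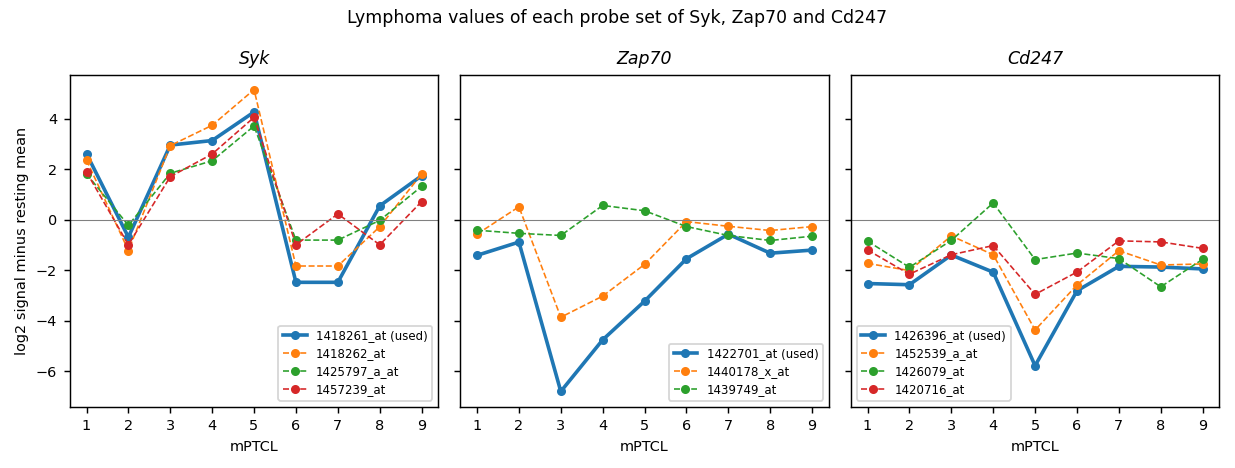
Log2 signal minus the mean of the resting arrays (vertical) for each probe set of Syk, Zap70 and Cd247 in mPTCL 1 to 9 (horizontal), with the probe set used as a solid line. The Syk lines are all above 0 in mPTCL 1, 3, 4, 5 and 9 and differ in sign in mPTCL 7 and 8, while 1 Zap70 probe set stays near 0 in mPTCL 3, where the used one is at -6.81.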

How the data were processed

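Each sample was hybridised to 1 array. The authors deposited intensity values on a linear scale, made with Expression Console (for the lymphomas, version 1.1) and its MAS5 method, per the submitters' processing notes. The 2% trimmed mean was 500 on every array and the columns are 1-colour, so no direction is involved; array medians ran from 68.0 to 118, and no scanner files, detection calls or scan dates were used here. Per the labels' protocols, a column kit was used for extraction and, for normal cells, a 3′ kit for amplification.

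Values under 32 were raised to 32 before taking log2. Among probe sets, 34958 had 1 gene symbol, 932 several and 9211 none; 34945 with 1 symbol, without controls, were used, and 34741 symbols were matched by gene ID. The 11902 genes reaching 100 in 3 or more arrays were tested with limma 3.58.1 in R 4.3.3 (lmFit, eBayes with trend) on the groups compared, with Benjamini-Hochberg adjustment over all genes tested; single probe sets were adjusted over 22364. On simulated data, 62% to 81% of 4-fold and 91% to 99% of 16-fold changes were recovered over the 3 comparisons, for genes drawn at random. The median SD of a tested gene among lymphomas was 0.603, against 2.11 to 2.84 for Tyrobp, Fcer1g, Syk and Zap70. The shares recovered therefore do not hold for those members. The number of arrays limits the precision. The members, the lists and the tests were chosen with earlier results of these data known. Named genes were the members, the 3 largest called changes per list and direction, context genes, and the 3 genes most like each member. Some genes of the lists are not reported here. Alternatives changed the floor, the filter, the scaling, the probe set rule, the fit and the arrays, and added a replicate block; replicate numbers did not pair the normal samples. Lymphomas left out for marker levels were chosen after the data were seen: 5 with a neutrophil mean over 2 log2 units above every normal array, and 2 with a B cell mean over 1 unit above.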

Additional observations from a re-analysis of the deposited data

Results flagged for a closer look

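In 2 of 32 sets of arrays examined, 1 lymphoma stood apart from the other 8 by more than Dixon's 95% limit allows, which chance gives in about 1 of 20 sets. Cd247 in mPTCL 5 had a log2 signal of 7.01, at a gap of 0.677 of the range (limit 0.493). Lcp2 in mPTCL 5 had a log2 signal of 9.61, at a gap of 0.508. The same lymphoma had the highest Syk signal (11.75) and the highest B cell marker mean (11.8); the part of those cells in its low Cd247 and Lcp2 was not tested.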

How the results depend on the processing

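Counts of called members depended on the settings. On activation 1 member was called, but 2 with median centring, 3 with the adjusted p alone (3678 of all genes), none with all 15 arrays in 1 fit (397 genes, Tyrobp limma adjusted p = 0.667), and 1 to 2 without any 1 array (1267 to 1505 genes). Against resting cells 1 was called, but 2 with log2(value + 16), a filter at 200 or the mean of probe sets, 3 with all 15 arrays, 0 without a filter (Cd247 limma adjusted p = 0.0513), and 0 to 4 without any 1 array (778 to 1850 genes). Against activated cells 2 were called, but 3 with quantile normalisation (Fcer1g too), 1 with a floor of 16, no filter, median centring, no trend or without the 5 lymphomas high in neutrophil markers, and 0 to 2 without any 1 array (916 to 2167 genes). The median balance was 2.11 to 3.07 over the other settings that kept all 9 lymphomas and 2.41 to 3.49 without any 1 lymphoma. It was 1.01 without the 5 lymphomas high in neutrophil markers and 1.88 without the 2 high in B cell markers. Of 17 relations, 1 passed (Zap70 with Cd3e), but 2 with a floor of 64 or the mean of probe sets (Syk with the B cell mean too). Without any 1 lymphoma 0 to 2 passed. Zap70 with Cd3e did not pass without mPTCL 2, 4, 5, 6, 8 or 9 (adjusted exact p = 0.0527 to 0.623). Zap70 with the NK receptor mean passed without mPTCL 7 (r = 0.90, n = 8, adjusted exact p = 0.0042). Single gene values that turned sign on activation were Cd247 by 1452539_a_at (0.19) and Syk by 1425797_a_at (0.36). Zap70 did so by the mean of probe sets (0.17), 1439749_at (0.24) and 1440178_x_at (0.53). Without the 5 lymphomas high in neutrophil markers, Syk against resting (-0.060) and Hcst against activated cells (0.11) turned sign too. None of these passed its test, and the cause was not tested. Counted over single gene values and relations together, 662 further cases stayed on the same side of the threshold, 22 gained a call and 31 lost one. Relations that did not pass could change sign within the 662. For example, Cd247 with Zap70 gave r = -0.05, but 0.36 without mPTCL 3. With the replicate number as a block, 1 member (Tyrobp, -1.97, limma adjusted p = 0.0092) and 1431 genes were called on activation, which changed no member's call; same-numbered samples deviated with correlations of -0.01, 0.05 and -0.01, so the numbers did not pair them.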
